A study of Mus musculus with 4 samples.

Results

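Fibroblast growth factors (FGFs) and the epidermal growth factor (EGF) receptor with its ligands were measured by RNA-seq in cardiac fibroblasts of the mouse, stromal cells that were being converted toward a heart muscle fate. The genes are Fgf1, Fgf2, Fgf7, Fgf9, Fgf10, Fgf18, Egfr, Hbegf, Areg and Ereg, taken by symbol from a fixed list. All 10 were among the 16383 genes of the deposited count table, and all 10 were among the 10736 genes that passed the low-count filter. The cells were primary, wild type, from the hearts of 3-month-old mice, and were collected at day 7. Every library came from cells given MGT, the factor set Mef2c, Gata4 and Tbx5 that drives the conversion. The shNr4a3 group (2 libraries) also carried a short hairpin against Nr4a3, an orphan nuclear receptor, and the shNT group (2 libraries) a non-targeting hairpin. No group without MGT was analysed here. Whether replicate libraries stem from distinct cultures or mice is not stated in the labels, so each p-value reflects only how far these libraries spread, and that spread may be technical.

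FGF ligands bind heparan sulfate on the cell surface and in the matrix and activate FGF receptors, which are receptor tyrosine kinases that signal through RAS and ERK. EGF family ligands are made as membrane-anchored precursors, are cut free by metalloproteinases, chiefly ADAM17, and activate EGFR and its ERBB relatives. In heart tissue FGF2 is a product of fibroblasts among other cells, and HB-EGF is a heparin-binding ligand with known roles in heart muscle and valves.

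The letters that define the 2 ligand families are shown for the ligands the results turn on. Each EGF family ligand carries an EGF-like module whose cysteines pair into disulfide bonds. The module is 108 bases long with 6 cysteine codons in each of the ligands below, which are neighbours on chromosome 5. It is printed as the spliced coding sequence from GENCODE M21 transcripts (GRCm38), 5′ to 3′ on the gene's own strand, with cysteine codons in capitals. The genomic spans, introns included, are chr5:91088496-91089111 (plus strand) for Ereg, chr5:91143614-91144364 (plus) for Areg and chr5:91362421-91366197 (minus) for Btc.
Ereg: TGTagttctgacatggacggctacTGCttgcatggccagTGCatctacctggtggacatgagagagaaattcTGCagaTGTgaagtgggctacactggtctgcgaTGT
Areg: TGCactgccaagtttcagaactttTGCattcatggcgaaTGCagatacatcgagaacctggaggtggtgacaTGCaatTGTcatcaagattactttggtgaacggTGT
Btc: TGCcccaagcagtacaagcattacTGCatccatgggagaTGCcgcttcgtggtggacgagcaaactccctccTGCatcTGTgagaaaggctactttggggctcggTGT
All 6 cysteine codons stand at the same places in the 3 sequences, while 53.7% of the bases are identical between Ereg and Areg and 52.8% between Ereg and Btc.

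The FGF ligands share a signature around a conserved cysteine. It is printed in the same way for Fgf2, the member among the FGF ligands that was called, and for Fgf7, Fgf10 and Fgf9, for comparison with it. The spans are chr3:37396271-37404665 for Fgf2, chr2:126088321-126089420 for Fgf7, chr13:118781592-118789172 for Fgf10 and chr14:58083287-58109386 for Fgf9, all on the plus strand. Capitals again mark cysteine codons.
Fgf2: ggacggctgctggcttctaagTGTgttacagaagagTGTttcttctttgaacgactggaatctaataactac
Fgf7: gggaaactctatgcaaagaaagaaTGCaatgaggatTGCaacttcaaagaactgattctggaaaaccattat
Fgf10: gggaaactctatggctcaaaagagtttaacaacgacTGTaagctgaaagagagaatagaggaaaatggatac
Fgf9: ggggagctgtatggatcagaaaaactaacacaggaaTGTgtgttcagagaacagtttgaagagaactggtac
Over these 72 bases Fgf7 and Fgf10, sister ligands of the same FGF subfamily, are 61.1% identical. Fgf2 is 40.3% identical to Fgf7 and 51.4% to Fgf9.

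Library totals over the table, which covers part of the genome and so is not the sequencing depth, were 28220440 to 30976450 counts. Nr4a3, the hairpin's target, had 356 and 353 counts in shNT and 18 and 32 in shNr4a3 (log2 fold change -3.86, edgeR adjusted p = 2.65e-06). Fibroblast markers were abundant in all libraries. The 11 markers, led by Fn1, summed to 16400 and 18000 CPM (counts scaled to library size) in shNT and 25100 and 26800 CPM in shNr4a3. By gene, 3 of them rose and 6 fell. The higher sums came through Fn1 and Postn, whose means went from 5570 to 13400 CPM and from 429 to 4940 CPM. Tcf21 and Pdgfra fell most (log2 fold change -3.35 and -2.26). The 11 cardiomyocyte markers, led by Tnnt2, summed to 15600 and 13400 CPM in shNT and 8800 and 7830 CPM in shNr4a3. These sums are mostly Tnnt2, which had 15300 and 13100 CPM in shNT and 8240 and 7120 CPM in shNr4a3. By gene, 7 rose and 2 fell, and Nppa and Actc1 rose most (log2 fold change 4.80 and 3.71). Of 14 macrophage markers tested, led by Lyz2, 7 fell and 7 did not pass, and their summed level was 329 and 259 CPM in shNT and 213 and 215 in shNr4a3. Of 9 endothelial markers, led by Eng, 2 rose and 4 fell (319 and 355 CPM in shNT, 231 and 221 in shNr4a3), and of 7 epithelial and mesothelial markers tested 3 rose and 1 fell (81.8 and 63.7 CPM in shNT, 57.2 and 57.3 in shNr4a3, summed over the 9 in the table). The marker named first in each list is the most abundant in shNT, which was Msln among the epithelial and mesothelial ones. The lower sums of that list came through Msln, with 35.2 and 24.4 CPM in shNT and 4.97 and 4.17 CPM in shNr4a3 (log2 fold change -2.70). The lower endothelial sums came mostly through Eng, with 210 and 227 CPM in shNT and 125 and 108 CPM in shNr4a3. The endothelial markers that rose were Kdr and Emcn (log2 fold change 0.98 and 1.82). Of 4 mural cell markers, led by Pdgfrb, 3 rose and 1 fell (208 and 213 CPM in shNT, 234 and 256 in shNr4a3). Over all genes tested, 30.7% rose and 29.4% fell at an edgeR adjusted p under 0.05, the threshold behind these counts. In these bulk libraries, fewer cells of a type and less RNA per cell cannot be told apart.

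Of the 10 genes, 1 rose (Hbegf) and 2 fell (Fgf2 and Ereg) under shNr4a3 at an edgeR adjusted p under 0.05, and 7 did not pass. This is 30% of the members, where 60.2% of all genes tested were called, 30.7% higher and 29.4% lower. Fgf2 and Ereg were called with a log2 fold change beyond 1 in size, as were 26.3% of all genes tested. For 7 members the libraries of the groups were fully separated in CPM, against 81.0% of all genes tested. The median log2 fold change was -0.25 over the members and 0.02 over all genes tested. In absolute size the median was 0.89 over the members and 0.56 over all genes tested. Areg and Fgf10 also had log2 fold changes beyond 1 in size, at low counts, and were not called. The share of members called was below that of genes at large, and the results that follow are those of single genes.

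**Figure D1:**
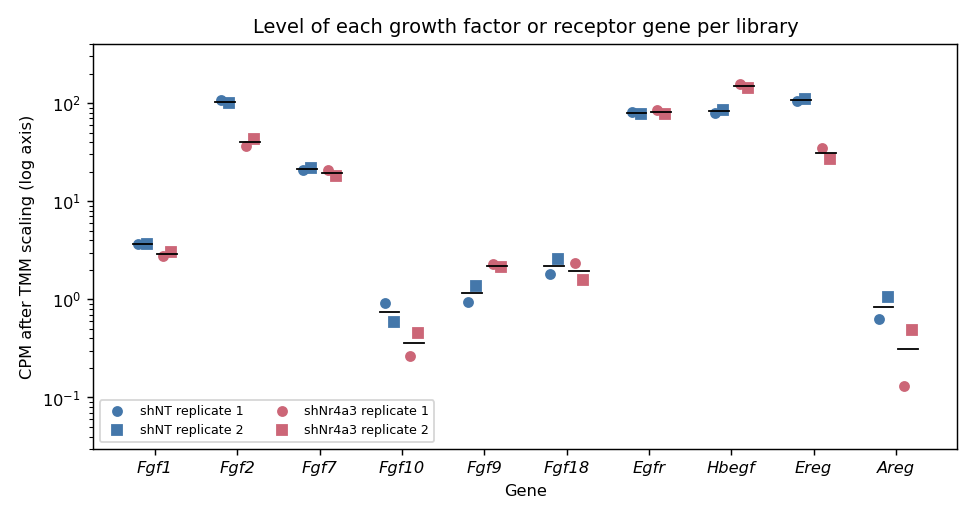
Level of each of the 10 genes in each library, as CPM after TMM scaling on a log axis; circles and squares are replicates 1 and 2, blue is shNT, red is shNr4a3, and black lines are group means. Fgf2 and Ereg are lower in both shNr4a3 libraries, Hbegf is higher in both, and the points of Egfr, Fgf7 and Fgf18 overlap between the groups.

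Fgf2 encodes basic FGF, a ligand that lacks a classical secretion signal and is stored on matrix heparan sulfate. It lies on chromosome 3 (37348346 to 37410108, plus strand, protein coding, mm10). Its level was 107 and 99.5 CPM in shNT and 36.7 and 42.7 CPM in shNr4a3. Both shNr4a3 libraries were below both shNT libraries. Fgf2 fell from 103 ± 5.52 to 39.7 ± 4.27 CPM (mean ± SD, n = 2 each), 2.61-fold, and its log2 fold change was -1.38 (SE 0.101, 95% interval -1.61 to -1.15, edgeR adjusted p = 3.93e-06). Exons of Fgf2 and of Nudt6, a gene on the opposite strand known as the FGF2 antisense gene, overlap over 640 bases, 9.44% of the exon length of Fgf2. The deposited length of Nudt6 is 1677 bases, so the shared stretch is a larger part of Nudt6. Nudt6 had 33.9 and 30.7 CPM in shNT and 11.7 and 14.1 CPM in shNr4a3 (log2 fold change -1.32, edgeR adjusted p = 2.28e-05). The strand setting of the counting is not given in the sources used here, so reads of the shared stretch cannot be told apart between these genes.

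Fgf7, keratinocyte growth factor, is made by mesenchymal cells and acts on epithelia through an isoform of FGFR2. It had 20.8 and 21.7 CPM in shNT and 21 and 17.9 CPM in shNr4a3, and the groups overlapped. It did not pass (log2 fold change -0.13, 95% interval -0.40 to 0.15, edgeR adjusted p = 0.394), and the interval of its ratio ran from 0.756 to 1.11. Fgf10, its sister ligand and a regulator of organ budding, was at the edge of detection, with 26 and 18 counts in shNT and 8 and 14 in shNr4a3. Its libraries did not overlap, but the change was not called (log2 fold change -1.04, 95% interval -2.41 to 0.33, edgeR adjusted p = 0.165).

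Fgf1, acidic FGF, binds all FGF receptors. It had 3.68 and 3.63 CPM in shNT and 2.78 and 3.03 CPM in shNr4a3, with no overlap, and did not pass (log2 fold change -0.33, 95% interval -0.91 to 0.25, edgeR adjusted p = 0.291). Fgf9, a ligand of mesothelium and epicardium in the developing heart, had 27 and 42 counts in shNT and 69 and 65 in shNr4a3. These are 1.16 ± 0.303 and 2.2 ± 0.119 CPM, and the groups did not overlap. The log2 fold change of Fgf9 was 0.92 (SE 0.382, 95% interval 0.05 to 1.78), and its edgeR adjusted p of 0.0633 missed the threshold. Fgf18, a ligand best known in cartilage and bone, had 1.82 and 2.55 CPM in shNT and 2.32 and 1.56 CPM in shNr4a3, overlapped, and did not pass (log2 fold change -0.17, 95% interval -1.01 to 0.66, edgeR adjusted p = 0.703). The interval of Fgf10 includes a fall as large as that of Fgf2, and the interval of Fgf9 includes a rise as large as that of Hbegf, so changes of that size could not be judged at these counts.

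**Figure D2:**
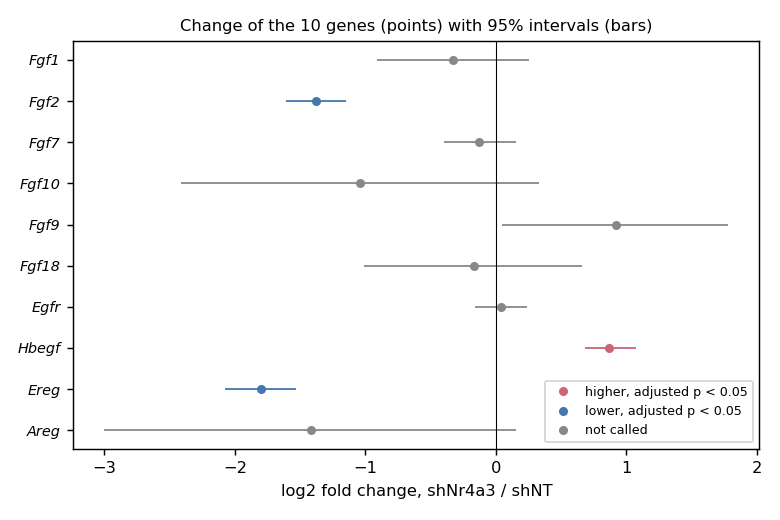
Log2 fold change of each gene, shNr4a3 over shNT (points), with its 95% interval (bars), from the fit over all tested genes. The intervals of Fgf2, Ereg and Hbegf are short and lie away from 0, that of Egfr is short and spans 0, and those of Areg and Fgf10 are the widest of the 10.

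Egfr, the shared receptor of HB-EGF, amphiregulin and epiregulin, did not pass, and its interval was narrow. It had 81.4 and 76.7 CPM in shNT and 84.8 and 77.6 CPM in shNr4a3, and the groups overlapped. Its log2 fold change was 0.04 (SE 0.0874, 95% interval -0.16 to 0.24, edgeR adjusted p = 0.718), so that ratios below 0.896 or above 1.18 lie outside the interval. The gene lies on chromosome 11 (16752203 to 16918158, plus strand, protein coding, mm10).

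Hbegf and Ereg, ligands of that receptor, moved in opposite directions. Hbegf encodes HB-EGF, a heparin-binding ligand of EGFR and ERBB4 (chromosome 18, 36504927 to 36515805, minus strand, protein coding, mm10). It had 79.6 and 85.5 CPM in shNT and 158 and 144 CPM in shNr4a3, with both shNr4a3 libraries above both shNT libraries. Hbegf rose 1.83-fold (95% interval 1.6 to 2.09), or 0.87 on the log2 scale (SE 0.0857, edgeR adjusted p = 2.44e-05). Ereg encodes epiregulin, which also binds EGFR and ERBB4 (chromosome 5, 91074622 to 91093646, plus strand, protein coding, mm10). Its level was 105 and 111 CPM in shNT and 34.9 and 27.1 CPM in shNr4a3, again without overlap. Ereg fell from 108 ± 4.45 to 31 ± 5.55 CPM, 3.49-fold, and its log2 fold change was -1.80 (SE 0.122, 95% interval -2.08 to -1.53, edgeR adjusted p = 2.43e-06). Macrophages can also express Ereg, and 7 of their 14 tested markers fell in the same libraries, where 29.4% of all genes tested fell. No macrophage marker was at 3 counts or fewer in all libraries. Among the 7 that did not pass were Lyz2 and Csf1r (log2 fold change -0.17 and 0.19, edgeR adjusted p = 0.208 and 0.412). The others that did not pass were Aif1, C1qb, Fcer1g, Laptm5 and Cd14. Their log2 fold changes were -1.26, -0.88, -0.78, -0.64 and -0.53. The median over the 14 tested markers was -0.92. The part of these cells in the result was not tested.

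Areg encodes amphiregulin, a lower-affinity EGFR ligand. It had 18 and 32 counts in shNT and 4 and 15 in shNr4a3, all at the low end of the table. The groups did not overlap, but the log2 fold change of -1.42 was not called (SE 0.697, 95% interval -3.00 to 0.15, edgeR adjusted p = 0.107). Without shNr4a3 replicate 2, the Areg log2 fold change was -2.64 and passed (edgeR adjusted p = 0.0487), and without shNr4a3 replicate 1 it was -0.77 and did not (adjusted p = 0.461).

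Per length of exon, the ligands could be set against each other. In shNT, Hbegf had the highest mean level of the 10 genes (34.8 CPM per kilobase), followed by Ereg (26.2), Fgf2 (15.3), Egfr (6.98) and Fgf7 (6.54). Fgf18 (1.84), Fgf1 (0.786), Areg (0.69), Fgf9 (0.272) and Fgf10 (0.163) were lower, and the libraries of Fgf1 and Areg overlapped in this order. In shNr4a3, Hbegf was at 63.6 CPM per kilobase, followed by Ereg (7.51), Egfr (7.17), Fgf7 (5.99) and Fgf2 (5.85). There the libraries of Ereg overlapped those of Egfr, and those of Fgf7 overlapped those of Fgf2, while both Egfr libraries lay above both Fgf7 libraries. The table gives Hbegf a length of 2373 bases, whereas its merged exons in GENCODE M21 cover 4834 bases. With the longer model Ereg rather than Hbegf ranked first in shNT, so that order rests on the gene model.

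The makeup of the ligand pools changed accordingly. Fgf2 took 63.4% and 59.3% of the summed per-kilobase level of the 6 FGF ligands in shNT and 36% and 43.8% in shNr4a3, and the sum went from 25 and 24.7 to 15 and 14.4 CPM per kilobase. Fgf7 took 25.6% and 27% in shNT and 43.1% and 38.3% in shNr4a3, although its own level was not called as changed. Among the 3 EGF ligands, Hbegf took 56.4% in each shNT library and 88.6% and 89.7% in shNr4a3. The ratio of Hbegf to Ereg per kilobase was 1.32 and 1.34 in shNT and 7.86 and 9.25 in shNr4a3 (0.647 and 0.656, and 3.86 and 4.54, with the GENCODE lengths). The mean ratio was 6.45 times higher in shNr4a3, a value that does not depend on the gene lengths. These shares are descriptions with no test of their own.

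**Figure D3:**
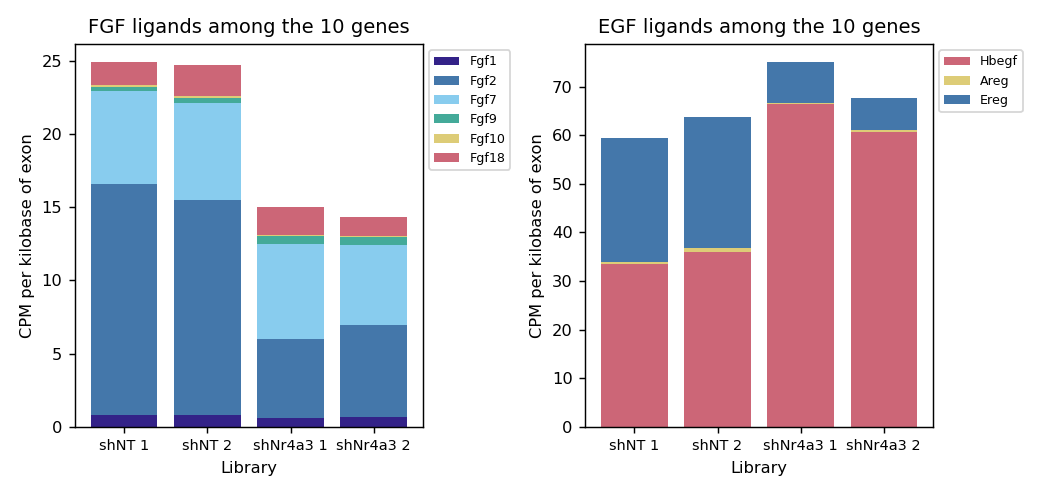
Level per kilobase of exon of the 6 FGF ligands (left) and the 3 EGF ligands (right), stacked for each library, with the lengths given in the deposited table. The FGF stack is shorter in shNr4a3 through its Fgf2 part, and the EGF stack is mostly Hbegf in shNr4a3, where it is shared with Ereg in shNT.

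Ereg and Areg lie in a cluster of EGF ligand genes on chromosome 5, in the order Epgn, Ereg, Areg and Btc, with gaps of 39.4, 46 and 209 kilobases. Btc, betacellulin, had 76 and 74 counts in shNT and 28 and 8 in shNr4a3 and fell by 2.09 on the log2 scale (SE 0.535, edgeR adjusted p = 0.00787). Its log2 fold change was -3.26 without shNr4a3 replicate 1 and -1.46 without shNr4a3 replicate 2, and both passed (adjusted p = 0.000574 and 0.0241). Epgn, epigen, was at 0 in each shNT library, at 2 and 0 counts in shNr4a3, and was not tested. Of the 3 cluster genes tested, all had negative log2 fold changes, and Ereg and Btc passed. The next genes were looked up after these values had been seen. Cxcl1 and Cxcl3, neutrophil chemokine genes on the Epgn side, fell by 1.91 and 1.04 (edgeR adjusted p = 8.62e-07 and 0.0278). Cxcl2 did not pass (log2 fold change -1.10, adjusted p = 0.0865). Mthfd2l, a folate enzyme gene that lies between the chemokines and the ligands, rose by 0.46 (adjusted p = 0.0326). Parm1, beyond Btc, rose by 2.13 (adjusted p = 1.2e-07), so neighbouring genes did not share 1 direction.

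**Figure D4:**
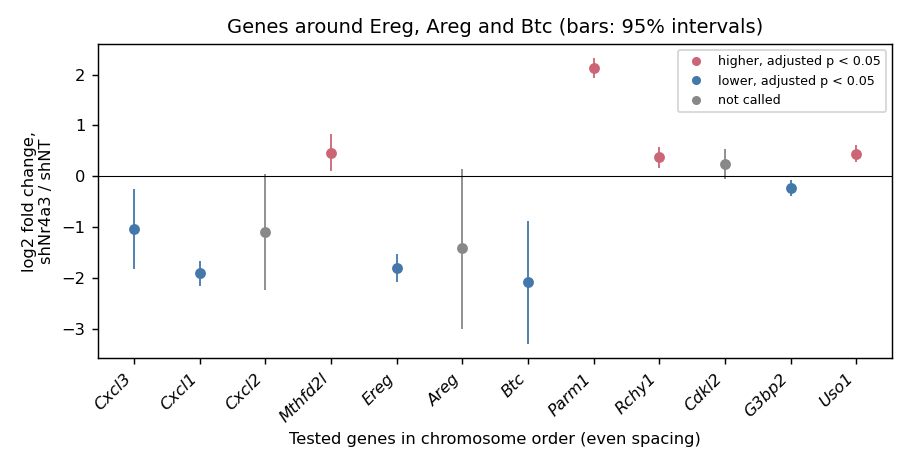
Log2 fold change with its 95% interval for the tested genes around Ereg, Areg and Btc, in chromosome order with even spacing rather than distance. Ereg and Btc are lower, as are Cxcl1 and Cxcl3, while Mthfd2l and Parm1, which border the ligand genes, are higher.

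Of the other ERBB receptor genes, all 3 were tested. Erbb2, the ERBB receptor that binds no ligand itself and pairs with the others, had 19.3 and 15.8 CPM in shNT and 37.9 and 40.4 CPM in shNr4a3. It rose without overlap by 1.16 on the log2 scale (SE 0.123, edgeR adjusted p = 3.9e-05). Erbb4, which binds neuregulins and HB-EGF, had 12 and 4 counts in shNT and 33 and 30 in shNr4a3 (log2 fold change 1.91, edgeR adjusted p = 0.029). That call was lost without shNT replicate 2, shNr4a3 replicate 1 or shNr4a3 replicate 2 (adjusted p = 0.216, 0.106 and 0.075), and the log2 fold change was 1.29 without shNT replicate 2 and 2.93 without shNT replicate 1. Erbb3 did not pass (log2 fold change 0.33, adjusted p = 0.62). Of the FGF receptors, Fgfr1 and Fgfr2 were not analysed here. Fgfrl1, a receptor without a kinase domain, had 45.5 and 49 CPM in shNT and 36.8 and 33.9 CPM in shNr4a3 and fell by 0.42 (adjusted p = 0.00527), but did not pass with shNT replicate 2 left out (-0.36, adjusted p = 0.0593). Fgfr3 did not pass (log2 fold change 0.43, adjusted p = 0.128). Counts of Fgfr4 were 10 and 24 in the shNT libraries and 0 in each shNr4a3 library (edgeR adjusted p = 0.00401). Fgfr4 did not pass the filter without shNT replicate 2 or with halved counts, and no fold is given for it because the unit counted is not known.

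Of the other ligands in the table, few were detected. Egf itself did not pass (log2 fold change -0.35, edgeR adjusted p = 0.267). Nrg2, a neuregulin, had 16 and 14 counts in shNT and 36 and 42 in shNr4a3 (log2 fold change 1.33, adjusted p = 0.0432). The Nrg2 call was lost without any 1 of the 4 libraries (adjusted p = 0.115 and 0.188 without shNT replicates 1 and 2, 0.117 and 0.189 without shNr4a3 replicates 1 and 2). The 4 further FGF ligand genes present, Fgf5, Fgf8, Fgf17 and Fgf22, had 0 to 13 counts in each library and were not tested. Among the FGF homologous factors, which stay inside cells and bind sodium channels, Fgf11 fell by 1.54 (adjusted p = 0.0242). Leaving out shNT replicate 2 (-1.29, adjusted p = 0.154) or shNr4a3 replicate 1 (-1.07, adjusted p = 0.128) ended the call of Fgf11, the value without shNr4a3 replicate 2 was -2.27, and Fgf14 did not pass (log2 fold change 0.20, adjusted p = 0.546).

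Genes for the release of EGF ligands were measured next. Of 6 tested, 4 fell and 2 were not called, a called share of 66.7%, near the 60.2% of all genes tested. Their median log2 fold change was -0.97, against 0.02 over all genes tested. Adam17, the main sheddase of HB-EGF, amphiregulin and epiregulin, had 141 and 135 CPM in shNT and 47.3 and 47.4 CPM in shNr4a3, and fell by 1.54 on the log2 scale (SE 0.0816, edgeR adjusted p = 5.47e-07). Rhbdf2, which encodes iRhom2, a partner that brings ADAM17 to the cell surface, had 13.1 and 16.5 CPM in shNT and 3.25 and 2.44 CPM in shNr4a3, and fell by 2.38 (SE 0.209, edgeR adjusted p = 1.14e-05). Neither gene overlapped between the groups. Rhbdf1, a relative of Rhbdf2, fell by 0.40 (adjusted p = 0.00313) and the metalloproteinase gene Adam19 by 1.79 (adjusted p = 1.29e-06). Frmd8, which stabilises iRhoms, and Timp3, an inhibitor of ADAM17, did not pass (log2 fold change -0.09 for each, adjusted p = 0.518 and 0.32). Hbegf thus rose in the libraries in which Adam17 and Rhbdf2 mRNA fell, and the amount of ligand released was not measured.

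Among 6 tested genes of a list of EGFR inhibitors and ubiquitin ligases, 4 were higher by the test, 1 was lower and 1 was not called. This is 83.3% called, against 60.2% of all genes tested, 30.7% higher and 29.4% lower. Lrig2 and Lrig3 are on this list by family, and whether they inhibit EGFR was not tested. Cblb, a ubiquitin ligase for activated receptors, rose by 0.69 (edgeR adjusted p = 0.0007). Errfi1, whose product MIG6 binds the EGFR kinase domain, rose by 0.34 (adjusted p = 0.0191), but not with shNT replicate 2 left out (0.20, adjusted p = 0.25). Lrig3 rose by 0.70 (adjusted p = 0.0105), lost without shNT replicate 2 or shNr4a3 replicate 2 (adjusted p = 0.0569 and 0.0738). Socs4 rose by 0.32 (adjusted p = 0.0234), lost without shNT replicate 1, shNT replicate 2 or shNr4a3 replicate 1 (adjusted p = 0.0549, 0.206 and 0.0514). Socs5, which like Socs4 can promote EGFR degradation, had 104 and 107 CPM in shNT and 43.2 and 48.4 CPM in shNr4a3 and fell by 1.20 (adjusted p = 4.6e-06). Lrig2 was not called (0.22, adjusted p = 0.321), and without shNr4a3 replicate 1 it passed (0.45, adjusted p = 0.0375).

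**Figure D5:**
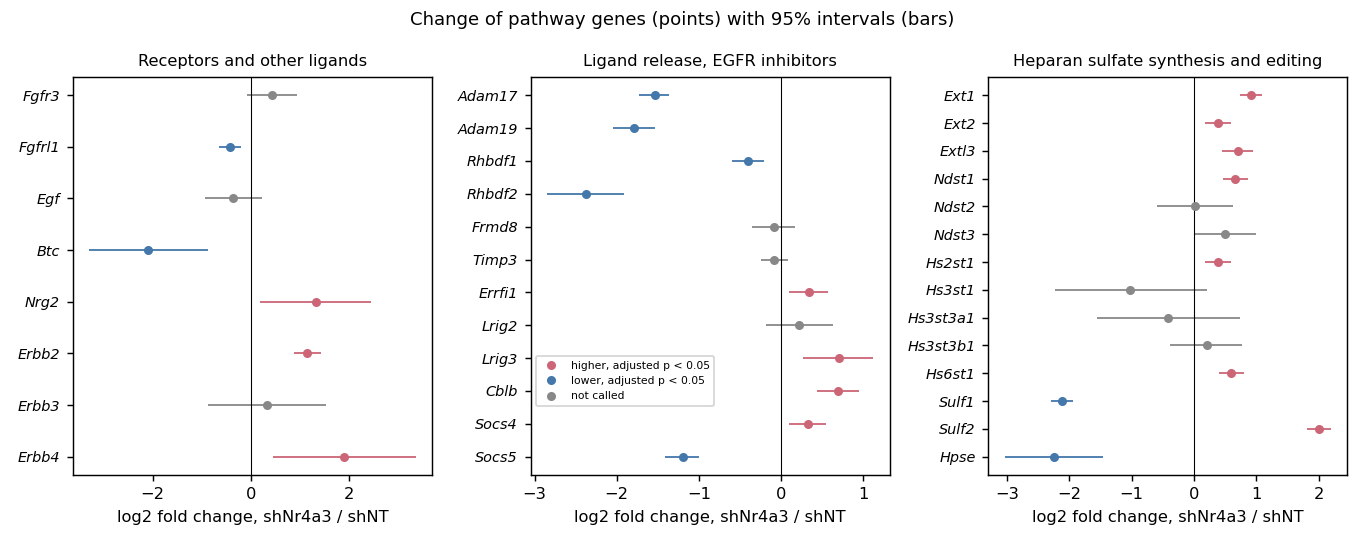
Log2 fold change with 95% interval for tested genes of the receptor and other ligand lists (left), the release and EGFR inhibitor lists (middle) and the heparan sulfate list (right); red is higher, blue lower and grey not called. Fgfr4, with 0 counts in shNr4a3, is left out; Adam17, Adam19 and Rhbdf2 lie to the left of -1, and Sulf1 and Sulf2 lie near -2 and 2.

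Genes that build and edit heparan sulfate, the co-receptor of FGFs and the anchor of HB-EGF, moved in both directions. Of 14 tested, 7 rose, 2 fell and 5 were not called, 64.3% called against 60.2% of all genes. Sulf1 and Sulf2 encode extracellular sulfatases that remove 6-O-sulfate groups, which FGF2 signalling complexes need. Sulf1 had 437 and 440 CPM in shNT and 97.3 and 104 CPM in shNr4a3 and fell by 2.12 (SE 0.0793, edgeR adjusted p = 9.89e-08). Sulf2 had 69.7 and 76.4 CPM in shNT and 296 and 292 CPM in shNr4a3 and rose by 2.01 (SE 0.0828, adjusted p = 1.49e-07). Per kilobase, Sulf1 was 3.23 and 2.97 times the level of Sulf2 in shNT, and Sulf2 was 5.91 and 5.42 times that of Sulf1 in shNr4a3. The chain polymerase gene Ext1 rose by 0.92 (adjusted p = 1.05e-05), and Hpse, heparanase, fell by 2.25 (adjusted p = 0.000453). Of 11 core protein genes tested, 4 rose and 5 fell (81.8% called). Sdc4, syndecan-4 and the most abundant of them per length in shNT, fell by 1.47 (adjusted p = 4.4e-06), Agrn, agrin, fell by 2.07 (adjusted p = 2.12e-07), and the glypican genes Gpc2 and Gpc1 rose by 2.24 and 1.18 (adjusted p = 9.33e-06 and 2.74e-05).

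Downstream genes were split between the directions. Of 13 adaptor and RAS-ERK genes tested, 6 rose and 6 fell (92.3% called, against 60.2% of all genes tested, 30.7% higher and 29.4% lower). Shc1 and Sos1, which link receptors to RAS, fell by 0.84 and 0.86 (edgeR adjusted p = 3.68e-05 and 0.000173), and Map2k2, a kinase that activates ERK, rose by 0.76 (adjusted p = 0.000116). Frs3, an FGF receptor docking protein, rose by 2.14 from 0.795 CPM, and Ptpn11, the phosphatase SHP2 and the most abundant per length, rose by 0.40 (adjusted p = 0.000926 and 0.00208). Among 12 genes induced by ERK signalling, 4 rose, 6 fell and 2 were not called (83.3% called). Etv1 and Etv4, transcription factor genes that FGF signals induce in many tissues, rose by 1.17 and 1.02 (adjusted p = 3.48e-05 and 0.00218). The feedback inhibitors Spred1 and Il17rd fell by 1.73 and 1.22 (adjusted p = 2.75e-07 and 0.000103), and Phlda1, the most abundant per length, fell by 0.71 (adjusted p = 0.000148). Other feedback inhibitors moved both ways. Spry1 rose by 0.60 (adjusted p = 0.000361). Spry2, Spred2 and Spry4 fell by 1.21, 0.64 and 0.33 (adjusted p = 4.46e-06, 0.000665 and 0.0483). The Spry4 call was lost in DESeq2 and limma-voom (adjusted p = 0.0849 and 0.0531). Dusp5 and Dusp6 were not called (0.17 and -0.25, adjusted p = 0.589 and 0.114).

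The RefSeq promoter windows (GRCm38.p6, 250 bases before to 50 after the start) were searched on both strands for the NR4A monomer site, written NBRE and spelled AAAGGTCA. A window was at hand for 7 of the 10 genes (Fgf2, Fgf7, Fgf9, Fgf10, Fgf18, Egfr and Areg). None was at hand for Fgf1 or for Hbegf and Ereg, which were called. None of the 7 windows held these letters, which stood in 1.51% of 32851 windows. At so low a share a lack in 7 windows would be usual, so it sets these genes apart in no way. The cyclic AMP response element, TGACGTCA, stood in the Areg window 61 bases before the start and in 1.79% of all windows. The AP-1 letters TGANTCA, found in 7.81% of all windows, stood in none of the 7. A match or its lack describes these letters in these windows and says nothing of binding.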

How the data were processed

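As deposited by the authors, the values are unnormalized read counts for each gene, in a table of 16383 genes that spans 16 chromosomes (1 to 5, 10 to 19, and 6 up to a last gene start at 70215400). Other parts of the genome were not analysed here. Per the submitters' processing notes, Trimmomatic 0.36, SAMtools and featureCounts of Subread 1.5.1 were used with build mm10. For the aligner, the strand setting and the annotation release, no source used here gives an answer. Per the labels' protocols, libraries were stranded, from RNA depleted of ribosomal RNA, and paired-end, while the molecule label reads polyA RNA.

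Genes with 2 to 19 counts had even counts in 82% to 84.3% of cases per library. Whether reads or pairs were counted is not given, so no counting intervals are printed, and a test with halved counts was added after this was seen. The table's coordinate cells end at 255 characters, so positions and exon overlaps come from GENCODE M21 (GRCm38), which matched 98.1% of genes by symbol and chromosome. Gene length in bases, another column that the authors deposited, was used for CPM per kilobase and differs from GENCODE M21 for Fgf1, Fgf9 and Hbegf.

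Each gene was tested in edgeR 4.0.16 under R 4.3.3 (quasi-likelihood F test), after filterByExpr and TMM scaling, in a model with no term besides the hairpin, and p-values were adjusted by Benjamini-Hochberg over the 10736 genes tested, with a threshold of 0.05. TMM factors were 0.9915 to 1.012, and 1 count was worth 0.0326 to 0.035 CPM. The standard error is the log2 fold change divided by the square root of F. The fit was tested on simulated data. Over genes with at least 10 counts, libraries of a group differed by more than counting noise (chi-square per degree of freedom 10.63 in shNT and 22.14 in shNr4a3), and all 4 were kept. Alternatives were RLE and upper-quartile scaling, DESeq2 1.42.0, limma-voom 3.58.1, other filters, a replicate block, and leaving out each library.

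The members and the gene lists were chosen with earlier results of these data known. All members are named. All tested genes of the receptor, other ligand and inhibitor lists are named, and from lists of over 8 tested genes the 2 called genes with the largest rise and the 2 with the largest fall at a mean of at least 1 CPM, and the most abundant per length. Those of the ligand release, FGF binding and homologous factor lists, and the neighbours on chromosome 5, were named after their values were seen. The same holds for the Sprouty, Spred2 and Dusp genes, and for the cell type markers beyond the most abundant of each type.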

Additional observations from a re-analysis of the deposited data

How the results depend on the processing

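The calls of Fgf2, Ereg and Hbegf held under all 12 alternatives, with log2 fold changes of -1.51 to -1.27, -1.99 to -1.64 and 0.80 to 0.92. Of the other members, Areg passed in 1 alternative, without shNr4a3 replicate 2, and ranged from -2.64 to -0.77; Fgf9 ranged from 0.66 to 1.21 with adjusted p of 0.0505 to 0.266. Fgf10 and Areg were not tested with a mean of at least 1 CPM or with halved counts. The number of members called was 3 to 4. All genes called numbered 6458, 6659 with the replicate block, 6446 with halved counts, and 5245 to 6360 with 1 library left out. The replicate numbers are not stated to pair libraries, and the deviations of same-numbered libraries correlated at 0.0455 over 10736 genes. With the block, 3 members were called, as without it. Of the 76 pathway genes tested, 58 were called, 53 in DESeq2 and 56 in limma-voom, where 60.2% of all genes tested were called in the main fit. Fewer pathway genes were called in each fit with 1 library left out, and fewest without shNT replicate 2. These lists were chosen with earlier results of these data known, so this count is a description only. The median log2 fold change of all genes lay between -0.0233 and 0.0193 across the settings. Areg and Fgf10, with at most 32 counts in a library, have the widest intervals of the members. Nrg2 also missed the threshold with no low-count filter, with the block and in DESeq2 (adjusted p = 0.0611, 0.0774 and 0.092).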

Other observations

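Among proteins that bind or export FGFs, or that bind FGF receptors, 3 of the 5 genes in the table were tested. Flrt3, a leucine-rich membrane protein that associates with FGF receptors, had 28 and 42 counts in shNT and 154 and 104 in shNr4a3 and rose by 1.84 on the log2 scale (edgeR adjusted p = 0.00149). Its relative Flrt2 had 39.7 and 37 CPM in shNT and 22.7 and 28.5 CPM in shNr4a3 and fell by 0.58 (adjusted p = 0.00314). Fgfbp3, a secreted carrier of FGFs, had a log2 fold change of -0.06 with a 95% interval of -0.37 to 0.26 (adjusted p = 0.747). Fgfbp1, at 0 and 6 counts in shNT and at 0 in each shNr4a3 library, was not tested, and neither was Flrt1, with 8 and 18 counts in shNT and 0 and 8 in shNr4a3. These genes were named after their values were seen.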
